A study of Drosophila melanogaster with 4 samples.

Results

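The euchromatic middle of the X chromosome of *Drosophila melanogaster* is described here by its clusters of histone H3, regions in which chromatin immunoprecipitation followed by sequencing (ChIP-seq) with an antibody against H3 gave more signal than input chromatin. Members are the regions of the X with a value above 0 whose midpoint lies from 3000001 to 20422827 on FlyBase r5, which leaves out the distal 3 Mb and the 2 Mb nearest the centromere. The list that the authors deposited for both replicates together (the combined list) holds 3144 such clusters of 23076 in all. Replicate 1 holds 2306 of 18082, and replicate 2 holds 2436 of 18625. All material was from larvae of the Oregon-R modENCODE strain, wild type and in the 3rd instar, for which the sources used here name no sex. Nuclei were fixed with formaldehyde and sheared by sonication. There are 2 H3 ChIP libraries and 2 input libraries, which were not immunoprecipitated, each ChIP with an input of its own. The label calls the antibody antibody3, and separate batches of larvae for the replicates are not mentioned.

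H3 is 1 of the 4 core histones around which DNA is wrapped in a nucleosome, so an antibody against it pulls down nucleosomal DNA whatever genes lie there. Flies carry the X singly in males and as a pair in females. In males the MSL complex, a set of proteins with roX RNAs, binds active genes of the X, acetylates histone H4 there and raises their transcription to the level reached from both female copies.

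Values are the numbers that the authors deposited for each region, taken here as log2 enrichment of ChIP over input, with 0 as no enrichment. No header names this scale, and statements in fold rest on it. For comparison the same lengths were left out at the distal and centromeric ends of arms 2L, 3L and 3R of the large autosomes. The windows measured 17.4 Mb on the X, 18.0 Mb on 2L, 19.5 Mb on 3L and 22.9 Mb on 3R. The main comparisons of value, width, spacing and coverage were computed in each replicate and are given as the mean with the SD of the 2 replicates. Other results are given per replicate, for the combined list or as a single figure, without that spread. An exact permutation test that swaps signs over 2 libraries cannot go below a two-sided p of 0.5, so no test was made and each difference is set against the spread between replicates. That spread may be technical. The files give no read counts, so depth is unknown.

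Clusters of the middle X carried higher H3 values than clusters of the same width on each autosomal arm, in both replicates. Clusters were compared within 6 width classes and the differences of medians were averaged with the middle X's own class sizes as weights. The middle X lay above 2L by 0.090 ± 0.0039, above 3L by 0.094 ± 0.0013 and above 3R by 0.091 ± 0.0041 log2 units (SD, n = 2 for each). The mean over the 3 arms was 0.092 ± 0.0031, or 1.07-fold, with 0.094 in replicate 1 and 0.090 in replicate 2. The autosomal arms were much closer to one another. At equal width 2L minus 3L was 0.0037 ± 0.0026, 2L minus 3R was 0.00087 ± 8.3e-05 and 3L minus 3R was -0.0026 ± 0.0031 (SD, n = 2 for each). Thus the X stood at least 0.087 above each arm in each replicate, while no pair of autosomal arms differed by more than 0.0055 in either. In the combined list 2L minus 3L was 0.0085, 2L minus 3R was 0.0078 and 3L minus 3R was -0.00069. The X there exceeded 2L by 0.066, 3L by 0.074 and 3R by 0.073. Among clusters not below their list's median value the mean over the arms was 0.052.

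The higher values were found in every width class. For clusters under 1500 bp the median on the middle X was 0.50 in replicate 1 and 0.43 in replicate 2. The 3 arms had 0.40 each in replicate 1 and 0.35 to 0.37 in replicate 2. For clusters of 2000 to under 3000 bp the X had 0.67 and 0.65, against 0.57 on each arm in replicate 1 and 0.57 to 0.58 in replicate 2. For clusters of 5000 to under 10000 bp the X had 0.79 and 0.84, against 0.68 to 0.70 and 0.72 to 0.73. Averaged over the arms the difference was 0.083 ± 0.017 under 1500 bp, 0.089 ± 0.0045 from 1500 bp, 0.089 ± 0.012 from 2000 bp, 0.098 ± 0.013 from 3000 bp, 0.109 ± 0.015 from 5000 bp and 0.101 ± 0.029 from 10000 bp (SD, n = 2 for each). The class means thus ran from 0.083 to 0.109, and the widest class rested on 17 and 28 clusters of the X, and on only 7 of 3L in replicate 1. In replicate 2 the difference was larger in each of the 3 widest classes, 0.107 to 0.121, than in each of the 3 narrowest, 0.072 to 0.086, while replicate 1 showed no such order, with 0.080 to 0.098 over all 6.

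**Figure D1:**
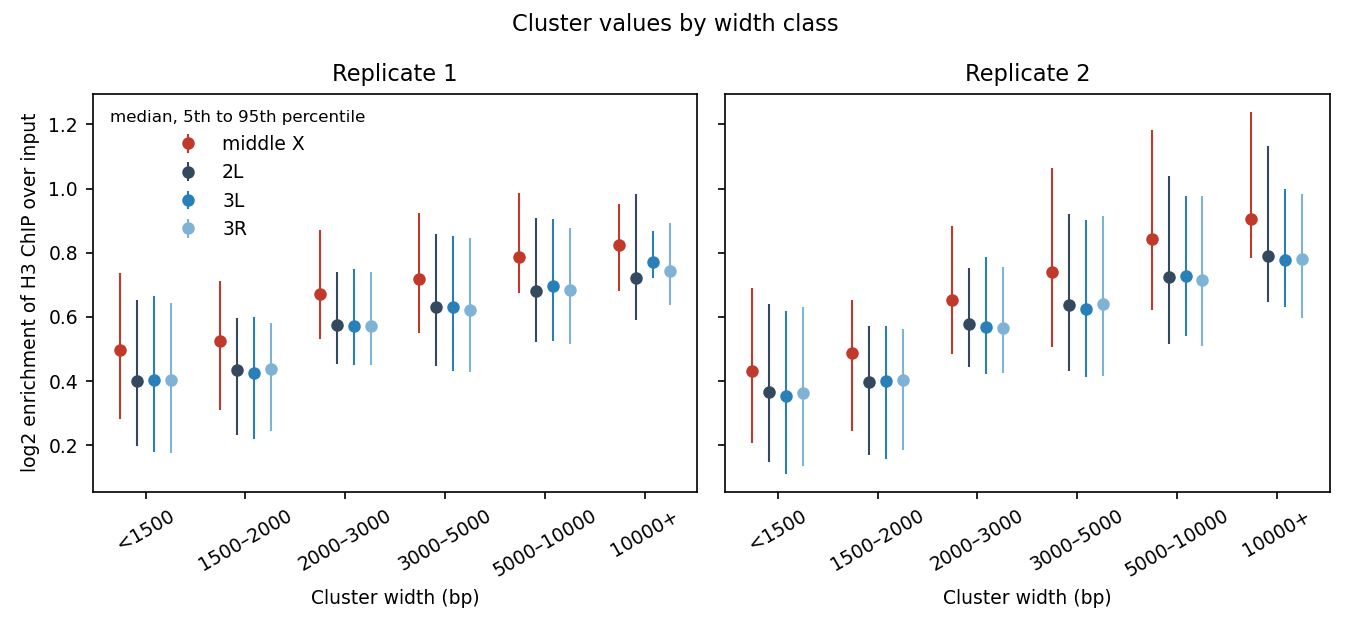
Log2 enrichment of H3 ChIP over input (vertical axis) by cluster width in bp (horizontal axis), for the middle X and for 2L, 3L and 3R without their ends, 1 panel per replicate. Points are medians and bars run from the 5th to the 95th percentile of clusters. The red points of the middle X lie above those of the 3 arms in all 6 width classes, while the bars overlap.

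The weak end of the distribution was raised together with its middle. At equal width, the 5th percentile of values on the middle X exceeded that of the arms by 0.083 ± 0.012, and the 95th percentile by 0.109 ± 0.0059 (SD, n = 2 for each). The 5th percentile of all middle X clusters was 0.35 in replicate 1 and 0.29 in replicate 2, against 0.25 to 0.26 and 0.19 to 0.21 on the arms. How the lists set their lower limit is not stated, and its part in the difference was not tested. The distributions still overlapped broadly. Of the middle X clusters of 2000 to under 3000 bp, 86.6% in replicate 1 and 81.3% in replicate 2 lay above the median of that class on an arm (mean over the 3 arms), where an arm compared with itself has 50%. Under 1500 bp the shares were 73.7% and 66.9%.

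High values were more frequent on the middle X. A value above 1 would be more than a doubling of ChIP over input on the scale taken here. It was reached by 27 clusters of the X in replicate 1 and 104 in replicate 2, or 1.17% and 4.27%. The arms had 4 to 7 such clusters in replicate 1, at most 0.246%, and 20 to 29 in replicate 2, at most 0.984%. On the X and on each arm the count was higher in replicate 2. In the combined list 20 clusters of the X, 0.636%, had such a value, against 0.113 to 0.326% on the arms. These counts were not taken at equal width.

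The higher values were spread along the whole middle X. It was divided into 34 whole windows of 500 kb, the last incomplete one being left out, with a mean of 36 to 97 clusters each. The median value of a window ranged from 0.54 to 0.65 in replicate 1 and from 0.53 to 0.68 in replicate 2. All 34 windows lay above the median window of the 120 autosomal ones, which was 0.52 and 0.51. Of the windows of the X, 16 in replicate 1 and 5 in replicate 2 lay above the highest autosomal window, which had 0.61 and 0.64. In the other direction, 1 autosomal window in replicate 1 and 2 in replicate 2 exceeded the median window of the X. In the combined list all 34 lay above the autosomal median too, although 1 of them was below the median of 3R taken alone. There only 3 windows of the X lay above the highest autosomal window, and 8 autosomal windows exceeded the median window of the X. Window medians were not taken at equal width. Window values were only moderately repeatable, with Pearson's r of 0.662 between the replicates over the 34 windows, all of which come from the same libraries. The ends of the X had values like its middle. At equal width the middle X minus the distal 3 Mb was 0.0070 in replicate 1 and -0.0038 in replicate 2, and minus the 2 Mb nearest the centromere it was -0.019 and 0.028.

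**Figure D2:**
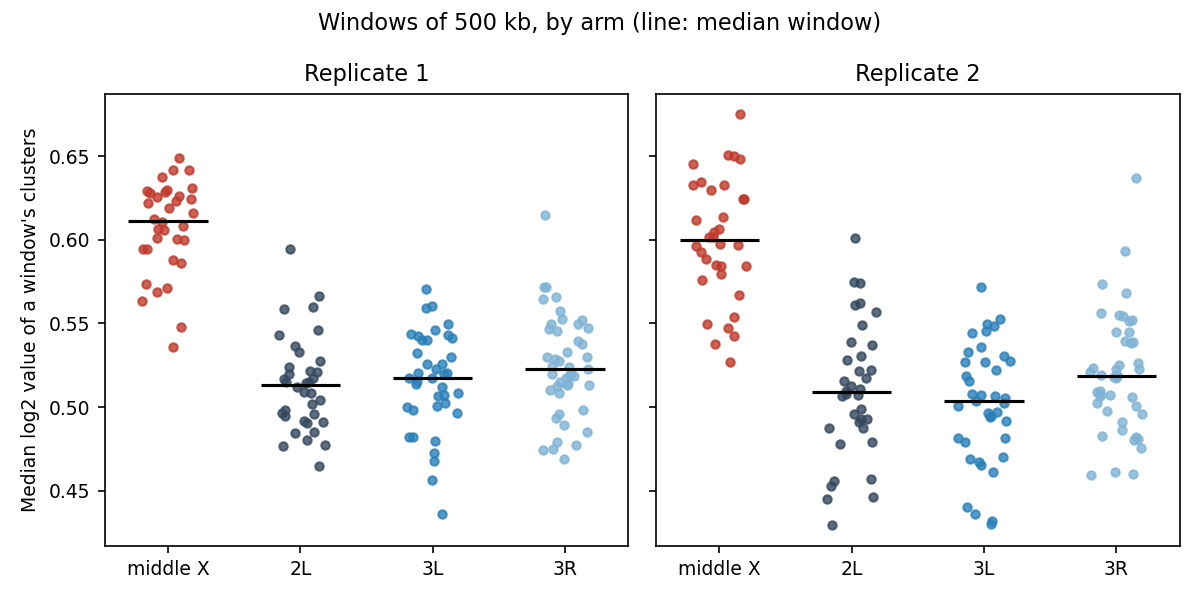
Median log2 value of the clusters in each 500 kb window (vertical axis) for the 34 windows of the middle X, 36 of 2L, 39 of 3L and 45 of 3R (horizontal axis), 1 panel per replicate. Each point is a window and each line the median window of its arm. No window of the middle X reaches down to the median line of an autosomal arm.

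Width, in contrast, did not set the middle X apart. The median width was 2060 ± 71.8 bp on the middle X, 1984 ± 32.5 bp on 2L, 2020.5 ± 12.0 bp on 3L and 2107 ± 59.4 bp on 3R (SD, n = 2 for each). The X was between 2L and 3R in both replicates. Its difference from the mean of the 3 arms was 23.1 ± 37.1 bp (SD, n = 2), which is smaller than the spread, with -3.17 bp in replicate 1 and 49.3 bp in replicate 2. It was -10 bp in the combined list and -329 bp among clusters not below their list's median value. Between their quartiles X clusters ran from 1591 to 2969 bp in replicate 1 and from 1638 to 3273 bp in replicate 2. The narrowest had 1301 bp in both lists, the lower limit also seen on 2L and 3R, and the widest had 19348 and 24157 bp. Clusters of at least 5000 bp made up 6.37% and 9.44% of those on the X, against 6.53 to 7.62% and 7.17 to 10.1% on the arms. In the combined list 58 of the 3144 clusters, 1.84%, were at least 10 kb wide, against 2.28% of all its clusters and 1.36 to 2.26% on the arms.

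Spacing on the middle X was like that of 2L and wider than that of 3R. The gap, the number of bases between a cluster and the next, had a median of 2370 ± 182 bp on the middle X, 2328 ± 126 bp on 2L, 2090.5 ± 145 bp on 3L and 1742.5 ± 94.0 bp on 3R (SD, n = 2 for each). Within each replicate the X had the longest median, at 2498 bp and 2241 bp, although 2L was close behind with 2417.5 bp and 2239 bp. The X exceeded the mean of the arms by 316 ± 60.0 bp (SD, n = 2). In the combined list the difference was 79 bp, with 1331 bp on the X and a longer median of 1392 bp on 2L, and among clusters not below their list's median value it was -1875 bp. The direction thus depended on which clusters were kept. Taken by the width of the cluster before the gap, this difference was 367 ± 311 bp under 1500 bp, 499 ± 398 bp from 1500 bp, 271 ± 95.6 bp from 2000 bp, 139 ± 126 bp from 3000 bp, 87.9 ± 166 bp from 5000 bp and 29.2 ± 353 bp from 10000 bp (SD, n = 2 for each). It was above 0 in both replicates in the 4 narrower classes and of opposite sign between replicates in the 2 wider ones. Only from 2000 to under 3000 bp did the X exceed each single arm in both replicates. From 1500 bp, for example, it was below 2L in replicate 2, with 2326.5 against 2588 bp. In the combined list the difference from the mean of the arms was -134 bp under 1500 bp and -12 bp from 5000 bp. It was 72.7 to 261 bp in the other 4 classes. Gaps over 10 kb were 13.5% and 11.3% of those on the X, near the 13.4% and 12.0% of 2L, and above the 7.44% and 6.31% of 3R.

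**Figure D3:**
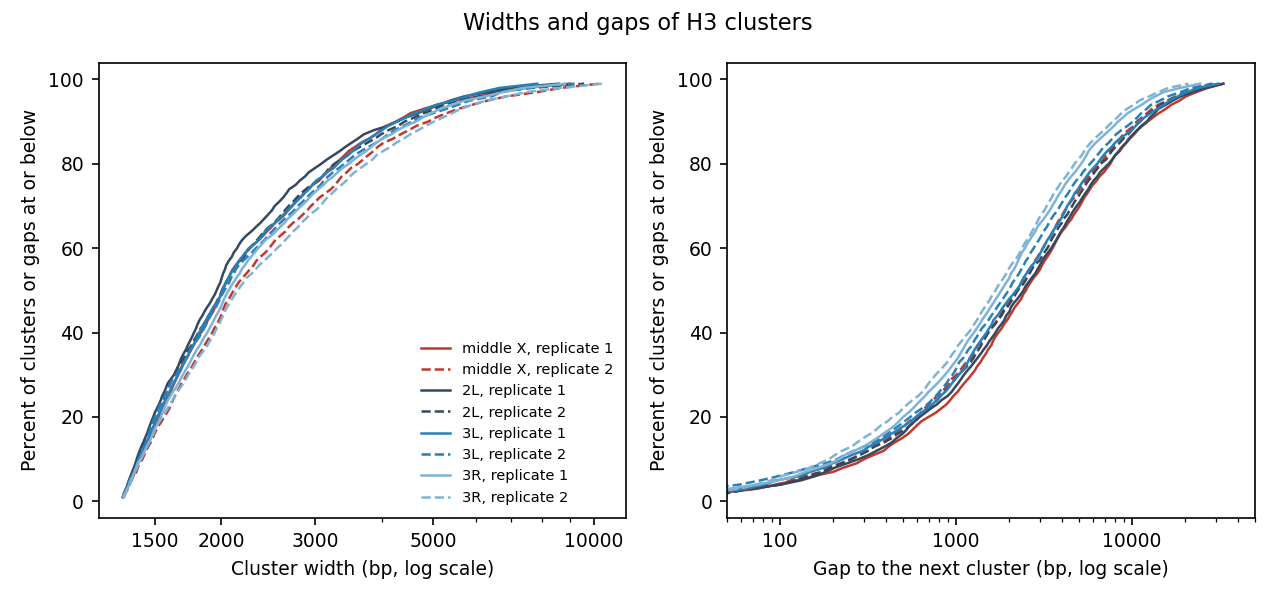
Cumulative percent of clusters by width (left, bp, log scale) and of gaps by length (right, bp, log scale), up to the 99th percentile, for the middle X and the 3 arms; the gap axis starts at 50 bp. Solid lines are replicate 1 and dashed lines replicate 2. The width curves of the middle X run among those of the arms, and its gap curves lie close to those of 2L and to the right of those of 3R.

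Taken over all listed clusters, the middle X was less dense in clusters than 3L and 3R. It had 136 ± 5.28 clusters per Mb, against 139 ± 2.39 on 2L, 148 ± 3.69 on 3L and 165 ± 2.07 on 3R (SD, n = 2 for each). It was the lowest in both replicates, although its difference from 2L, -3.24 ± 2.88 per Mb (SD, n = 2), was close to the spread. Clusters covered 36.6 ± 3.74% of the middle X, 35.2 ± 1.68% of 2L, 38.2 ± 2.00% of 3L and 45.4 ± 2.70% of 3R (SD, n = 2 for each). The X minus 2L was -0.094 percentage points in replicate 1 and 2.81 in replicate 2, and the X minus 3R was -9.54 and -8.07. The distal 3 Mb of the same chromosome were covered more, with 44.7% and 52.0%, and the 2 Mb nearest the centromere less, with 23.2% and 27.2%. Dropping clusters below their list's median value kept 67.5% and 63.1% of those on the middle X in the replicates. On the 3 arms together it kept 43.3% and 43.4%. The clusters kept were thus denser per Mb on the middle X than on the 3 arms pooled, in both replicates. This reversed the order found over all listed clusters. Density on each single arm and coverage of the arms are not given under that cutoff.

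Coverage differed more between the replicates on the middle X than on the arms. It was higher in replicate 2 than in replicate 1 by 5.28 percentage points on the X, 2.38 on 2L, 2.82 on 3L and 3.82 on 3R. Of the middle X clusters of replicate 1, 88.6% (95% Wilson interval 87.3 to 89.9%) had 50% or more of their bases in clusters of replicate 2, against 86.2 to 89.5% on the arms and 88.5% over all of its clusters. In the other direction 77.2% (75.5 to 78.8%) of replicate 2 clusters were covered by replicate 1, against 81.1% on 2L and on 3L, 83.1% on 3R and 81.0% over all. These intervals cover counting error only.

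Paired clusters show where the values moved. Each replicate 1 cluster of the middle X was paired with the replicate 2 cluster it overlapped most, each of those being used once, which gave 1912 pairs. Replicate 2 minus replicate 1 had a median of 0.021 with an SD of 0.14 over pairs, against an SD of 0.11 on each of the 3 arms. Pairs under 3000 bp in replicate 1 had a median difference of 0.00097, and the 537 wider ones had 0.065. On the arms the wide pairs had 0.029 to 0.035. Across pairs of the X the values had a Pearson's r of 0.720 and a Spearman's rho of 0.694, while r was 0.771 to 0.791 on the arms. Clusters on 1 arm share their libraries, so these are descriptions. Starts of paired clusters were a median of 126 bp apart on the X and 104 to 110 bp on the arms.

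**Figure D4:**
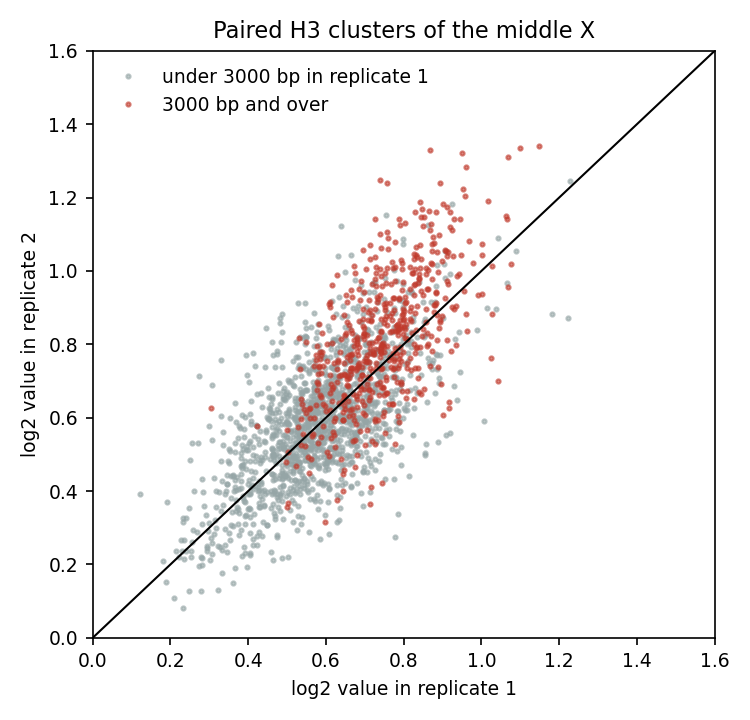
Log2 value in replicate 2 (vertical axis) against replicate 1 (horizontal axis) for the 1912 pairs of overlapping clusters of the middle X. Grey points are under 3000 bp wide in replicate 1, red points wider, and the line marks equal values. Wide clusters lie on balance above the line, by a median of 0.065.

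Of the combined clusters of the middle X, 1623 of 3144, 51.6% (95% Wilson interval 49.9 to 53.4%), had 50% or more of their bases in clusters of each replicate. The share was 55.3% over the whole combined list, 52.7% on 2L, 56.1% on 3L and 59.9% on 3R. With 80% in place of 50%, the share on the X was 30.2%. The combined list is taken to hold the same libraries, so its overlap with them is no independent support. Replicate 1 by itself covered another 215, and replicate 2 by itself 493. The remaining 813, 25.9%, were covered by neither, against 24.1% of all combined clusters. Those covered by both were wide and strong, at 3003 bp and 0.54 in the median. Those covered by neither had 1257 bp, under the narrowest replicate cluster, and 0.36. Of 768 combined clusters under 1500 bp both replicates covered 6, and of 58 clusters of at least 10 kb they covered 56. The share rose with the value as well, from 18.1% of the 408 clusters of up to 0.25 to 96.5% of the 226 above 0.75 and up to 1. It was 85.0% (64.0 to 94.8%) of the 20 above 1. The counts by width, by value and for a replicate by itself were made on the middle X only. They therefore do not show whether it differs from the arms in these respects.

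Along the middle X the covered share varied widely. Over the 34 windows it ran from 16.1% to 59.2% (mean of the replicates), with a median of 35.3%, and replicate 2 was above replicate 1 in all 34. The highest window was 18 to 18.5 Mb, with 53.9% in replicate 1 and 64.6% in replicate 2. Next were 5.5 to 6 Mb, with 47.8% and 55.0%, and 19.5 to 20 Mb, with 48.7% and 53.8%. The lowest was 3 to 3.5 Mb, with 16.0% and 16.2%, followed by 12.5 to 13 Mb, with 20.4% and 26.5%, and 12 to 12.5 Mb, with 21.1% and 26.8%. The 4 windows from 18 to 20 Mb all had over 40% in both replicates. The 3 sparsest windows differed in value. The window from 3 to 3.5 Mb had medians of 0.57 and 0.55, and that from 12.5 to 13 Mb had 0.57 and 0.55, all below the lower quartile of the 34 windows, 0.59 in replicate 1 and 0.58 in replicate 2. The window from 12 to 12.5 Mb had a median value of 0.65 in replicate 1, the highest of the 34 in that replicate, and 0.60 in replicate 2. Over the windows, covered share went with the number of clusters (Pearson's r = 0.944), with their median width (0.726) and less closely with their median value (0.572). These are descriptions over windows that share their libraries.

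**Figure D5:**
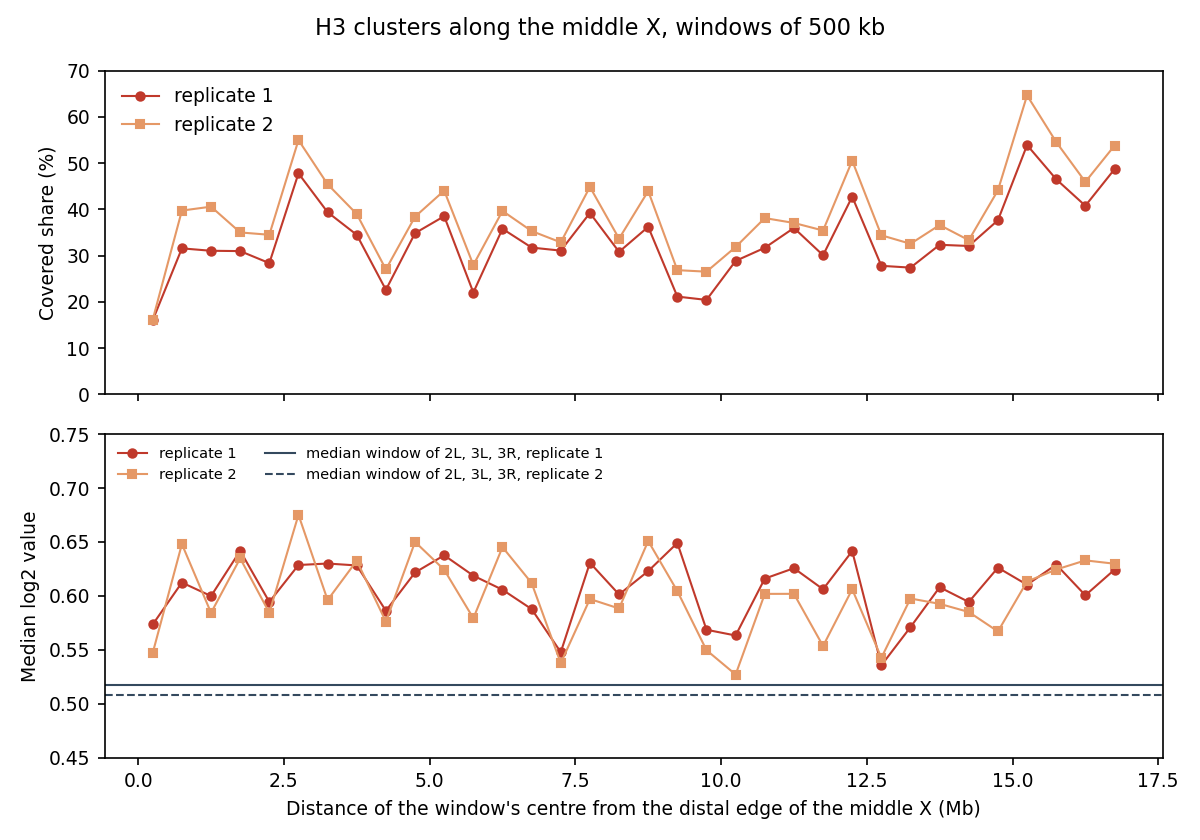
Covered share in percent (top) and median log2 value (bottom) of the 34 windows of 500 kb along the middle X, by the distance in Mb of the window's centre from the distal edge of the middle X, with replicate 1 as circles and replicate 2 as squares. Horizontal lines in the bottom panel give the median of the 120 windows of 2L, 3L and 3R together, 1 line per replicate. All windows lie above both lines in the bottom panel, whose axis does not start at 0, while the covered share runs from 16.0% to 64.6%.

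Of the 5 widest combined clusters, 3 lay between 18501480 and 18587706, a stretch of 86.2 kb of which clusters covered 84.6% in replicate 1, 90.2% in replicate 2 and 94.4% in the combined list. The widest ran from 18501480 to 18526552 (25.1 kb, value 0.83). Replicate 1 covered 96.9% of it with 4 clusters of 0.41 to 0.91, and replicate 2 covered 95.2% with 4 clusters of 0.45 to 1.05. The next, from 6707778 to 6732068 (24.3 kb, value 0.92), was 1 cluster of 24157 bp with a value of 1.08 in replicate 2 and 4 clusters of up to 9020 bp in replicate 1, with values of 0.70 to 0.87. The others ran from 18564884 to 18587706 (22.8 kb, value 0.76), from 18541990 to 18564504 (22.5 kb, value 0.77) and from 9118876 to 9141334 (22.5 kb, value 0.71). Either replicate held 85.2% or more of the bases of all 5, but their division into clusters differed between the lists.

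The highest values were of 2 kinds. The top of the combined list was a cluster of 1001 bp from 4625880 to 4626880 with a value of 1.64, followed by one of 1101 bp from 14180908 to 14182008 with 1.28. Neither had a base in a cluster of either replicate. Another narrow one, from 3310220 to 3311550 (value 1.14), had a replicate 1 cluster of 1346 bp with 1.53, the highest value of that list on the middle X, and none in replicate 2. The other 2 of the 5 highest were found in both replicates and were wide. The region from 10965186 to 10973850 (8665 bp, value 1.21) had 1.15 in replicate 1 and 1.34 in replicate 2, the highest value of replicate 2 on the middle X. The region from 10834488 to 10843212 (8725 bp, value 1.19) had 1.10 and 1.33. Among clusters covered by both replicates, the next highest ran from 6217060 to 6222256 (5197 bp, value 1.13), from 11003448 to 11018308 (14861 bp, value 1.11) and from 20309520 to 20315072 (5553 bp, value 1.07). Their values were 1.07, 0.95 and 1.07 in replicate 1 and 1.31, 1.32 and 1.14 in replicate 2. All 5 of these regions had the higher value in replicate 2. Of these 5, 3 lay between 10834488 and 11018308.

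Value and width were tied to each other on the middle X as on the arms. Pearson's r between value and log2 width was 0.613 in replicate 1 and 0.712 in replicate 2 over its clusters, and 0.631 to 0.640 and 0.647 to 0.666 on the arms. The relation was not smooth. Near 2000 bp the values fell in a narrow band. The 130 clusters of replicate 1 from 1900 to under 2000 bp had values from 0.49 to 0.67 between their 5th and 95th percentiles, a spread of 0.177, while the 179 from 1500 to under 1600 bp spread over 0.521 and the 39 from 2500 to under 2600 bp over 0.374. In replicate 2 these spreads were 0.152, 0.477 and 0.507. The same narrowing was present on the arms, at 0.142 to 0.183 and 0.157 to 0.158. Within this band the medians of the X were higher, with 0.56 and 0.52 against 0.48 and 0.45 to 0.46, while the ranges overlapped. The 95th percentiles of the arms were 0.56 to 0.60 and 0.54, above the 5th percentiles of the X, 0.49 and 0.45. Neighbouring clusters hardly shared their values, with Pearson's r of 0.023 and 0.047 between a cluster and the next on the X, and 0.050 to 0.078 on the arms.

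The longest stretch without a cluster in the combined list ran from 15896627 to 15964473 (67.8 kb) and had no base of a cluster in either replicate, where it was part of bare stretches of 79.8 kb and 77.0 kb. The others of the 5 longest ran from 11831185 to 11877875 (46.7 kb), from 4920837 to 4958137 (37.3 kb, of which replicate 2 held 62 bp), from 3070679 to 3099411 (28.7 kb) and from 3233677 to 3261621 (27.9 kb). The last 2 lie in the window with the lowest covered share. Whether reads could be placed in them is not stated.

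Depleted regions, which the authors list with values below 0, were rare on the middle X. Neither replicate had one there. The combined list had 12, or 0.689 per Mb, against 53 on 2L (2.94 per Mb), 55 on 3L (2.81 per Mb) and 58 on 3R (2.53 per Mb). They were 0.380% of the regions listed on the middle X, against 1.10% in the whole list and 1.29 to 1.55% on the arms. Their values on the X ran from -0.144, at 17040226 to 17041730, to -0.0023, and their median width was 1526 bp. Of the 12, 5 had bases in an enriched cluster of 1 replicate and none in clusters of both. The replicate lists hold 5 or fewer depleted regions on each of the 4 arms, so this difference has no measure of spread. Depleted regions and clusters are split by the sign of the same value. Their lower share on the X is thus not a result independent of the higher values there.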

How the data were processed

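Bowtie 0.12.7 is the aligner named, per the submitters' processing notes. Per the file headers, the build is FlyBase r5. Not given in the sources used here are the program that listed the regions, its thresholds, the scaling to input, how both replicates were joined, and whether a region's value is its mean or its peak. The authors deposited 1 value per region, taken as log2 enrichment over input. No header names this scale. It rests on the 40 highest values of each list, of which 32, 29 and 11 were distinct in replicate 1, replicate 2 and the combined list. Over all pairs of distinct values, 2 raised to the pair's difference was a whole-number ratio (denominator up to 100, tolerance 1e-08) for 449 of 496 pairs in replicate 1, 343 of 406 in replicate 2 and all 55 in the combined list. Inputs come without values. No gene names were used, because the annotation at hand is of another build.

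From these lists, widths, gaps, coverage (clusters clipped at the window's edges), overlaps and medians by width class were computed (scipy 1.17.1, pandas 2.3.3 and numpy 2.4.6 under Python 3.11.15), and the measures were tested on simulated data. Width classes began at 0, 1500, 2000, 3000, 5000 and 10000 bp, and a class needed 5 clusters on each side. Regions named by position are the 5 widest, the 5 of highest value, the 5 of highest value covered by both replicates, the 5 longest gaps and the 3 highest and 3 lowest windows by coverage; the stretches that group 3 wide or 3 high clusters, the width band near 2000 bp and the 4 windows from 18 to 20 Mb were singled out after their values were seen. The members and comparisons were chosen with earlier results of these data known. Alternatives were a value cutoff, merged clusters, other windows and width classes, other overlaps, the combined list and each replicate alone.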

Additional observations from a re-analysis of the deposited data

How the results depend on the processing

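Differences between the X and the arms were taken within each library throughout. No paired analysis was possible because, for ChIP against input with the same replicate number, the inputs come without values. The value difference at equal width stayed above 0 in each alternative run, at 0.091 with width classes of 100 bp, 0.090 with the distal 3 Mb kept and 0.090 to 0.094 with a replicate left out, but it was 0.071 in the combined list and 0.052 when clusters below their list's median value were dropped. That cutoff kept 67.5% and 63.1% of middle X clusters in the replicates and 43.3% and 43.4% of those of the arms, so it compares unlike parts of the lists. The width difference changed sign. It was -329 bp under that cutoff, -3.67 bp with clusters closer than 500 bp merged, -10 bp in the combined list and -3.17 to 49.3 bp with a replicate left out. The gap difference was 250 bp with the distal part kept, 79.0 bp in the combined list and -1875 bp under the cutoff, where the cause was not tested beyond the unequal shares kept. The covered share of the middle X was 28.4% under the cutoff, which removes clusters, and 52.8% in the combined list. Asking for 1 bp of overlap with each replicate put the doubly covered share of combined clusters at 56.6%, and asking for 80% put it at 30.2%. Unknown depth limits every count of clusters.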
